A study of Homo sapiens with 9 samples.

Results

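Open chromatin was examined around 9 genes of the complement system, C1R, C1S, C2, C3, C5, C8A, C9, CFB and CFI, out of 19821 protein-coding genes of the annotation (GENCODE release 44 placed on GRCh37). The genes were chosen by name, with earlier results of these data known. Every ATAC-seq peak that overlapped a gene body or the 20 kb on either side of it was taken. C1R and C1S lie side by side on chromosome 12, and C2 and CFB side by side on chromosome 6, so that the 9 windows formed 7 loci and neighbouring genes shared some peaks. In total, 94 peaks lay in these windows, and they merged into 50 regions out of 111260 regions of the whole experiment.

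The complement system is a cascade of plasma proteins that marks and lyses microbes, and hepatocytes make most of these proteins. C1R and C1S are the serine proteases of the first component, which starts the classical pathway. C2 and CFB supply the protease of the classical and of the alternative C3 convertase, C3 is the protein that these convertases cleave, and C5, C8A and C9 belong to the terminal part of the cascade that builds the membrane attack complex. CFI is the protease that degrades activated C3 and C4 and so restrains the cascade.

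ATAC-seq uses a transposase that inserts sequencing adapters into accessible DNA, so that reads pile up where chromatin is open. HepG2 cells, a human liver cancer line, were transfected with 50 nM of siRNA and collected 72 hours later. The siRNA was the non-targeting control NTG, siINO80#1 or siINO80#2, the latter pair directed against INO80, the ATPase of the INO80 chromatin remodeling complex. Each siRNA was used in 3 independent transfections, which gives 9 samples of the same line, and 1 peak list was deposited for the 3 replicates of each siRNA. No value per replicate entered, no test between siRNAs was possible, and the lists do not show how far INO80 itself was depleted. The comparison asks which accessible sites of the complement genes appear in the control list and in the lists made after INO80 siRNA.

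The lists held 69730 peaks for NTG, 69333 for siINO80#1 and 53113 for siINO80#2. The height of a peak is its fold enrichment, the reads at the summit over the local background, each plus 1. The background that each list could not go below was 3.82 reads for NTG, 5.16 for siINO80#1 and 5.34 for siINO80#2. The lowest peaks listed at that background had 12, 14 and 15 reads and a fold enrichment of 2.70, 2.44 and 2.53. From these backgrounds and the shortest peak of each list, the read depth behind the INO80 siRNA lists was estimated at 1.43 and 1.44 times that of NTG, so that reads at a summit are not comparable between lists without regard to it. A gene without a peak can therefore still have had reads below these limits. Because heights are relative to the list they come from, each peak was also ranked by fold enrichment, and its percentile within its own list is given. Of 10 hepatocyte markers, 9 had a start-site peak in NTG, 9 in siINO80#1 and 8 in siINO80#2. Of 6 leukocyte markers 2 had one in every list, of 3 fibroblast markers 1, and of the 2 endothelial markers in the annotation, CDH5 and VWF, none.

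The promoters of 6 genes whose reference start lay in or next to a peak are shown because the results below turn on them. The reference start is that of the transcript that the annotation marks as canonical. Each sequence is GRCh37 reference DNA in the direction of transcription, from 140 bases before the start, with the first 10 transcribed bases in capitals. Capitals elsewhere mark a match to 1 of the 9 motifs described further on. The C5 and CFB promoters overlapped a peak of each of the 3 lists. The CFI promoter overlapped a peak of NTG alone, within a region that also held peaks of the other lists to either side. The C8A promoter overlapped a peak in NTG and siINO80#1, and the C3 and C2 promoters one in NTG alone.
C5 promoter, chr9:123812544-123812693, minus strand: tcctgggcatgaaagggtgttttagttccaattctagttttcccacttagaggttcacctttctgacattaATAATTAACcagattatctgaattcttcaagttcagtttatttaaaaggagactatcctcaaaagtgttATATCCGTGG
CFB promoter, chr6:31913732-31913881, plus strand: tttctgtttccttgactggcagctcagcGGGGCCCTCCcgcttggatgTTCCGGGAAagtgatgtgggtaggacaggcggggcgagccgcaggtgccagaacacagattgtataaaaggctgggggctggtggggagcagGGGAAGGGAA
CFI promoter, chr4:110723146-110723295, minus strand: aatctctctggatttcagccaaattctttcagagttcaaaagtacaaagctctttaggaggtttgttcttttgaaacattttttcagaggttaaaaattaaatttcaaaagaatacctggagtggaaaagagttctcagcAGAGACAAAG
C8A promoter, chr1:57320330-57320479, plus strand: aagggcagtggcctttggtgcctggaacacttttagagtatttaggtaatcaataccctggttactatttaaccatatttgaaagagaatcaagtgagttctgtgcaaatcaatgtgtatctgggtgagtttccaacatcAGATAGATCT
C3 promoter, chr19:6720652-6720801, minus strand: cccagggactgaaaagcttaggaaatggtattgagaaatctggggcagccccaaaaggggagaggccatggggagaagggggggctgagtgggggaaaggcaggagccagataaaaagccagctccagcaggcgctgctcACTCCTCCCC
C2 promoter, chr6:31895354-31895503, plus strand: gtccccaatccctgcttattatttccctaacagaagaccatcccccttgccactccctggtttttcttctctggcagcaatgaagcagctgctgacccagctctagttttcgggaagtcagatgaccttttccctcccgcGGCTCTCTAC

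These promoters hold few CpG dinucleotides. In the 150 bases shown, C8A and CFI had 0, C3 and C5 had 1, C2 had 3 and CFB had 6. Over 300 bases around the reference start, from 250 before it, the observed over expected CpG ratio was under 0.4 in 9 of the 9 genes, with a median of 0.172 against 0.778 over all protein-coding genes. The share of genes with a start-site peak is therefore given below both for all protein-coding genes and for those with a ratio under 0.4, called low-CpG genes.

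Control cells had more peaks at the start sites of complement genes than cells with either INO80 siRNA. A start-site peak has its summit within 1 kb of the start of a protein-coding transcript of the gene. Of the 9 genes, 8 had such a peak in NTG, against 58.8% of all protein-coding genes and 20.5% of the 4641 low-CpG genes. In siINO80#1 6 of 9 had one, against 58.6% and 19.8%. In siINO80#2 4 of 9 had one, against 52.0% and 16.4%. Because the 9 genes were chosen with earlier results of these data known, these shares are description only. C1R had no start-site peak in any list. C5, CFB and CFI had one in every list.

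Of the 8 genes with a start-site peak in NTG, C2 and C9 had none in siINO80#1, and C1S, C3, C8A and C9 had none in siINO80#2. The same loss was seen in 6.41% and 14.5% of all genes with a start-site peak in NTG, and in 21.3% and 30.9% of the low-CpG genes with one. With 2 of 8 and 4 of 8 genes, the complement genes lay near the low-CpG background for siINO80#1 and above it for siINO80#2, by a number of genes that no test can weigh. The low-CpG genes were not matched to them for peak height. The order of the lists also rested on the definition of a start-site peak. With 2.5 kb in place of 1 kb the counts were 8, 8 and 4 genes for NTG, siINO80#1 and siINO80#2, and a minimum −log10 q of 5 left 3, 4 and 2.

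**Figure D1:**
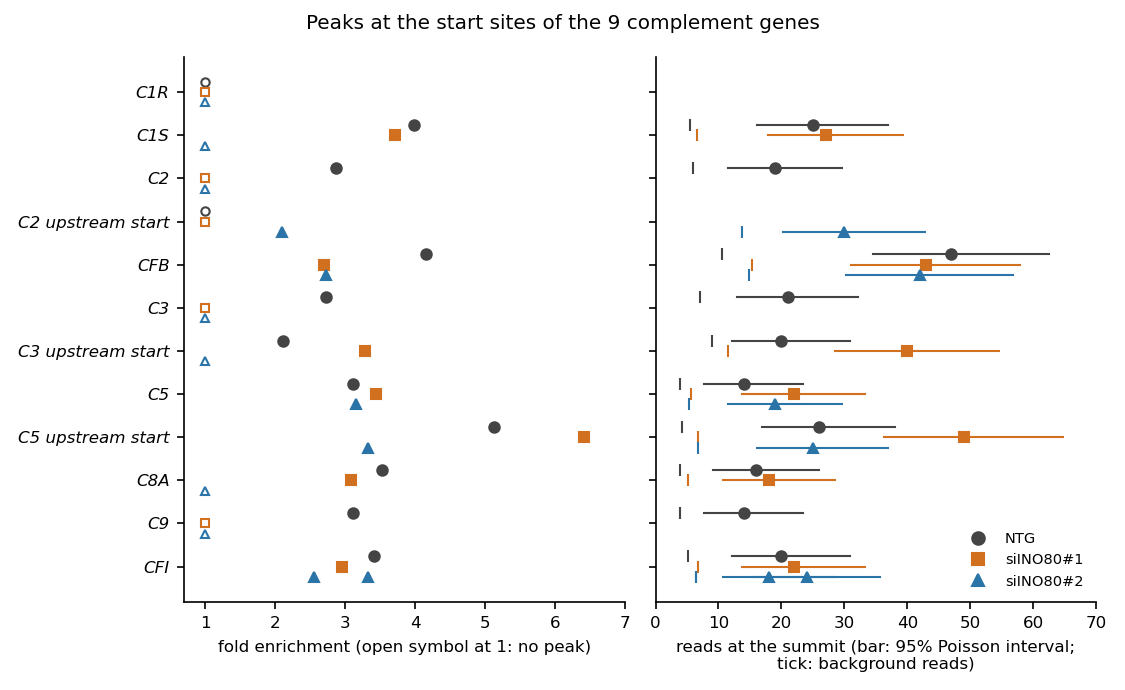
Start-site peaks of the 9 complement genes in the 3 peak lists, with fold enrichment on the left (open symbols at 1 stand for no peak) and reads at the summit on the right, where bars are 95% Poisson intervals and ticks are background reads. C5, CFB and CFI carried filled symbols for all 3 lists, C1R for none. The reads are not scaled for the depth of the lists.

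The proteases of the classical pathway were C1S and C1R. C1S, which cleaves C4 and C2, had a start-site peak in NTG of 3.98-fold enrichment with 25 reads (exact 95% Poisson interval 16.2 to 36.9) over a background of 5.53. In siINO80#1 the peak had 3.72-fold enrichment with 27 reads (17.8 to 39.3) over 6.53, and siINO80#2 had no peak there. The summits lay 50 and 33 bases from the nearest annotated start, and the percentiles, 63.5 in NTG and 62.4 in siINO80#1, were close to each other. The region was chr12:7167846-7168102.

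C1R activates C1S within the first component and lies tail to tail with it. Its window held no start-site peak, and GRCh37 has 50000 unknown bases at chr12:7189877-7239876, inside the annotated gene, to which no read can map. The reference start of C1R, at position 7245131 of chromosome 12, lies outside this gap, so the gap itself does not cover the start. The 1 distal peak of its window, at 7183635, was in siINO80#1 alone, with 2.57-fold enrichment and 16 reads. The other peaks of its window belonged to C1S or to C1RL.

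The convertase proteases C2 and CFB lie in tandem within the major histocompatibility region. CFB had a start-site peak in each list, at chr6:31913428-31913983, with 47 reads over a background of 10.5 in NTG, 43 over 15.3 in siINO80#1 and 42 over 14.8 in siINO80#2. The fold enrichment was thus 4.16, 2.70 and 2.72, and the percentile 66.6, 30.1 and 31.2. Ranked by −log10 q instead of fold enrichment, the percentile was 79.7, 58.5 and 58.5. The intervals of these reads, not scaled for depth, were 34.5 to 62.5, 31.1 to 57.9 and 30.3 to 56.8. Relative to the lowest background of its list the summit held 12.3, 8.34 and 7.87 times as many reads, with both INO80 siRNA lists below NTG.

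At the C2 reference start a peak was listed for NTG alone, with 2.87-fold enrichment, 19 reads over a background of 5.96 and a percentile of 26.9. C2 also has annotated starts far upstream, and 1 of these carried a peak in siINO80#2 alone, with 2.10-fold enrichment and 30 reads over 13.8. That peak ranked at a percentile of 1.75 and lay 447 bases from the start of EHMT2, a histone methyltransferase gene. At the reference start itself, C2 was therefore without a peak after either INO80 siRNA.

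C3, the central component, had peaks at both of its start regions in NTG. The peak at the reference start, chr19:6720657-6720890, had 2.73-fold enrichment, with 21 reads over 7.05, and was in NTG alone. The upstream start, chr19:6730378-6730663, had 2.11-fold enrichment in NTG with 20 reads over 8.97, and 3.29-fold in siINO80#1 with 40 reads over 11.5. It had no peak in siINO80#2. The siINO80#1 peak at the upstream start ranked at a percentile of 54.0 and the NTG peak at 0.586, so the start used by the count for C3 differed between these lists.

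Among the terminal components, C5, whose fragments attract leukocytes and start the membrane attack complex, had 2 start regions with a peak in every list. At the reference start, chr9:123812493-123813170, the fold enrichment was 3.11 with 14 reads in NTG, 3.44 with 22 reads in siINO80#1 and 3.16 with 19 reads in siINO80#2. The heights were close to each other, while the summits were 78, 375 and 485 bases from the start. The upstream start, chr9:123836748-123837774, is shared with the divergent gene CNTRL, a centrosome gene. It had 5.12, 6.42 and 3.33-fold enrichment with 26, 49 and 25 reads, so siINO80#1 lay above NTG and siINO80#2 below it.

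C8A encodes a subunit of C8, which inserts into the membrane. Its start-site peak, chr1:57320367-57321094, had 3.53-fold enrichment in NTG (16 reads over 3.82) and 3.09-fold in siINO80#1 (18 reads over 5.16), and none was listed for siINO80#2. The summit was 77 bases from the start in NTG and 381 in siINO80#1. C9, which forms the pore, had its only start-site peak in NTG, with 3.11-fold enrichment and 14 reads over 3.82. That summit lay 798 bases from the reference start, inside the gene, and the 150 bases around the start of C9 overlapped no region.

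CFI, the regulator among the 9, had a broad region over its start in all 3 lists, chr4:110722441-110724141. NTG had 1 peak of 3.41-fold enrichment with 20 reads, 1 base from the start. siINO80#1 had 1 peak of 2.96-fold with 22 reads, 577 bases away, and siINO80#2 had 2 peaks, of 3.33-fold with 24 reads and 2.55-fold with 18 reads, at 604 and 436 bases. The region was thus open in every list, and the summit over the start itself was found in NTG only.

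Over all start-site peaks the complement genes were of middling height. The median percentile of the best start-site peak per gene was 52.1 in NTG, 50.9 in siINO80#1 and 43.1 in siINO80#2, against 79.8, 79.2 and 76.1 for all protein-coding genes with such a peak. For low-CpG genes with such a peak it was 64.7, 61.8 and 58.2. Counting every start-site peak, not only the best per gene, the highest was at the upstream C5 start in siINO80#1, at 88.6. Its summit lay nearer to a CNTRL start than to the C5 start. The upstream start also gave the best C5 peak in each list. The lowest start-site peak was at the upstream C3 start in NTG, at 0.586. The 4 start-site regions without a peak in either INO80 siRNA list, or with one in siINO80#2 alone, ranked at percentiles from 1.75 to 39.3.

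**Figure D2:**
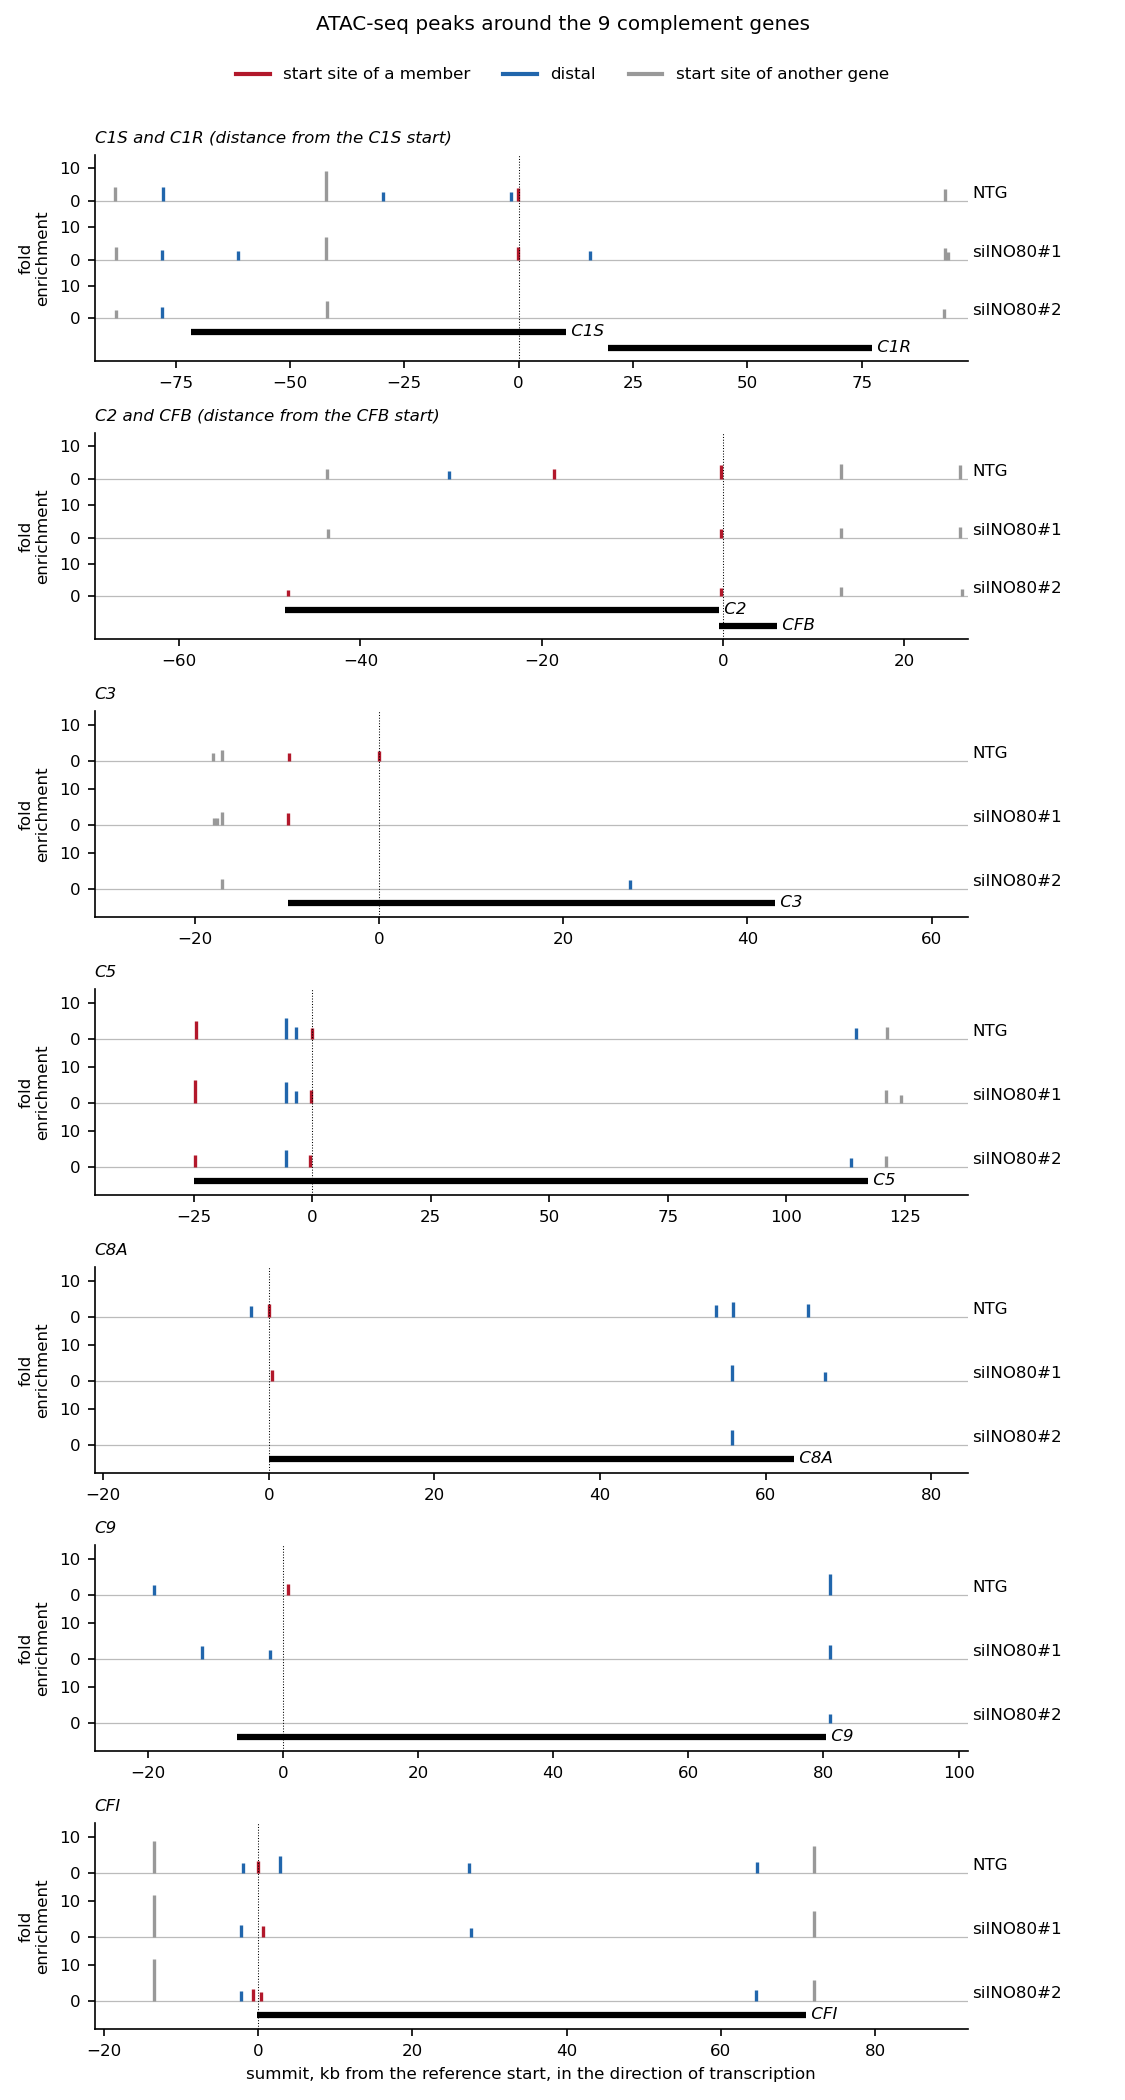
Peaks in the windows of the 9 complement genes, drawn as lines at their summits with fold enrichment as height, 1 row per peak list; the horizontal axis is distance in kb from the reference start in the direction of transcription and black bars are gene bodies. The tallest lines are grey and stand at start sites of neighbouring genes, and the red line at the C3 and the C2 reference start is present in the NTG row only.

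Distal peaks, with a summit more than 1 kb from any protein-coding start, numbered 17 in NTG, 12 in siINO80#1 and 8 in siINO80#2. They formed 25 regions, of which 5 had a peak in every list. A single list accounted for 18 regions, NTG for 10 of them, siINO80#1 for 6 and siINO80#2 for 2. The remaining 2 regions combined NTG with 1 INO80 siRNA list. For the classes given here, the 95% Wilson interval held the share among the 96832 distal regions of the experiment. NTG alone held 10 of 25 (40%, 23.4 to 59.3) against 26.5%, siINO80#1 alone 24% against 23.5%, siINO80#2 alone 8% against 13%, and all 3 lists 20% (8.86 to 39.1) against 21.2%. CFB had no distal peak in its window, and the other 8 genes had at least 1.

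The strongest distal regions of C5, C9 and C8A were found in all 3 lists. In C5 the region chr9:123817621-123818364, in an intron of the longest transcript and 5496 bases upstream of the reference start, had 5.93-fold enrichment in NTG, 5.94 in siINO80#1 and 4.80 in siINO80#2. At the 3′ end of C9, chr5:39283394-39283856 had 5.81, 3.90 and 2.53-fold enrichment with 27, 23 and 15 reads over the lowest background of each list. Its percentile went from 83.2 in NTG to 65.8 and 18.9. In an intron of C8A, chr1:57375780-57376574 had 4.20, 4.46 and 4.12-fold enrichment with 28, 34 and 29 reads. The C8A site was thus of similar height in all lists, the C5 site was lowest in siINO80#2, and the C9 site ranked below NTG in both INO80 siRNA lists.

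The strongest distal region of C1S, chr12:7089919-7090824, also lay in all 3 lists, with 4.12, 2.88 and 3.63-fold enrichment, and overlapped the neighbouring gene LPCAT3. The only distal peak of C3, in an intron at chr19:6693345-6693493, was in siINO80#2 alone with 2.38-fold enrichment. The only one of C2, in an intron at chr6:31883586-31883746, was in NTG alone with 2.35-fold enrichment and 14 reads. These single-list peaks stood close to the threshold of their lists.

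Among the 10 distal regions of NTG alone, 2 ranked above percentile 50. In an intron of CFI, 2887 bases from the nearest annotated start, chr4:110720177-110720511 had 4.85-fold enrichment with 26 reads (17.0 to 38.1) over a background of 4.57 and a percentile of 74.9. Past the 3′ end of C8A, chr1:57385104-57385728 had 3.60-fold enrichment with 20 reads over 4.84 and a percentile of 55.7. The CFI site was the strongest distal site of its window. No distal region, and no region of any kind, had a peak in both INO80 siRNA lists without one in NTG.

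Of the distal regions named above, 4 hold a motif within 100 bases of the summit, shown here as the match in capitals with up to 25 reference bases on either side, on the plus strand of GRCh37. The C8A intron site holds a STAT match, the C8A site past the gene an HNF1 match and the C9 site a C/EBP match, and the C3 intron peak another C/EBP match.
C8A intron, STAT, chr1:57376424-57376482, plus strand: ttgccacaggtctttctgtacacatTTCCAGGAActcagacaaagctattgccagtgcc
C8A downstream, HNF1, chr1:57385464-57385514, plus strand: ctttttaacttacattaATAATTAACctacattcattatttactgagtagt
C9 downstream, C/EBP, chr5:39283626-39283683, plus strand: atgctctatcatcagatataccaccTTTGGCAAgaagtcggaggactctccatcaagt
C3 intron, C/EBP, chr19:6693294-6693351, plus strand: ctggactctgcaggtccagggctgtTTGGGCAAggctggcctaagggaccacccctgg

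For the 9 motifs, matches were searched on both strands in the 200 bases around the strongest summit of each of the 50 regions. C/EBP factors, HNF1, HNF4 and FOXA control liver genes, STAT and NF-kB factors carry acute-phase signals, AP-1 and the factors of the CRE respond to growth and cyclic AMP signals, and YY1 is a subunit of the INO80 complex. C/EBP (TTGCNNAA) was present in 7 of 50 regions against 10.3% of all 111260 regions, AP-1 (TGACTCA) in 3 against 11.8% and STAT (TTCNNNGAA) in 2 against 6.10%. HNF1 (GTTAATNAT), NF-kB and YY1 (AAGATGGC) were each present in 1, against 1.06%, 2.85% and 1.22%. CRE (TGACGTCA), FOXA (TGTTTAC) and HNF4 (CAAAGTCCA) were present in 0, against 0.333%, 4.96% and 0.801%. Within these 200 bases, only that of CFI among the 11 start-site regions held a match, to C/EBP. No match in these regions overlapped another.

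In the 300 bases around the reference start, C5 held an HNF1 match 65 bases upstream, in capitals in the C5 promoter above, against 0.512% of 19541 promoters. CFB held a STAT match 88 bases upstream and an NF-kB match 108 bases upstream, against 6.42% and 8.64% of promoters. C/EBP was matched in 2 of the 9 genes, against 8.07% of promoters, that of C1R lying 12 bases upstream. C1R also held a FOXA match 231 bases upstream (2.42%). The HNF1 match of C5 lay within the region that had a peak in all 3 lists, whose summit in NTG was 78 bases upstream of the start.

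The strongest peaks of the windows stood at the starts of neighbouring genes. Peaks at such starts numbered 11 in NTG, 14 in siINO80#1 and 9 in siINO80#2. GAR1, a small nucleolar ribonucleoprotein gene next to CFI, had 8.93, 11.9 and 11.6-fold enrichment, with 64, 124 and 102 reads. LPCAT3, a phospholipid acyltransferase gene next to C1S, had 9.25, 7.05 and 5.39-fold enrichment. Of the 11 NTG peaks at neighbouring starts, 11 had a match in siINO80#1 and 9 in siINO80#2. Over the experiment, 86.3% and 76.3% of the NTG peaks within 1 kb of any coding start had a match. At start sites of the complement genes 7 of 10 (39.7 to 89.2%) and 4 of 10 (16.8 to 68.7%) NTG peaks had one, and the second of these intervals lay below the background, which is not restricted to low-CpG genes. At distal sites 6 and 6 of 17 had one (35.3%, 17.3 to 58.7), against 49.7% and 41.6% of all distal NTG peaks.

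Counting every region, 18 of 50 (36%, 95% Wilson interval 24.1 to 49.9) had a peak in all 3 lists, against 26.8% of the regions of the experiment. Regions of a single list numbered 13 for NTG (26.0%, 15.9 to 39.6) against 24.4%. For siINO80#1 there were 9 (18%, 9.77 to 30.8) against 21.6%, and for siINO80#2 there were 3 (6%, 2.06 to 16.2) against 11.7%. NTG shared 6 (12%, 5.62 to 23.8) with siINO80#1 alone, against 7.64%, and 1 (2%, 0.354 to 10.5) with siINO80#2 alone, against 2.62%. In both INO80 siRNA lists without NTG were 0 of 50, which allows up to 7.13%, against 5.19%. The intervals cover counting error only and treat regions as independent. For these classes over regions of every kind, each interval held the share of the whole experiment. The share in all 3 lists lay above that of the experiment, by less than this error.

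Of the 11 start-site regions of the complement genes, all 3 lists held 4 (36.4%, 15.2 to 64.6), against 64.6% of the 14428 regions of the experiment within 1 kb of any coding start. NTG alone held 3 (27.3%, 9.75 to 56.6) against 10.4%, NTG with siINO80#1 another 3, at the same share and interval, against 9.43%, and siINO80#2 alone 1 (9.09%) against 3.04%. That background is not restricted to low-CpG genes, and these shares were not tested.

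**Figure D3:**
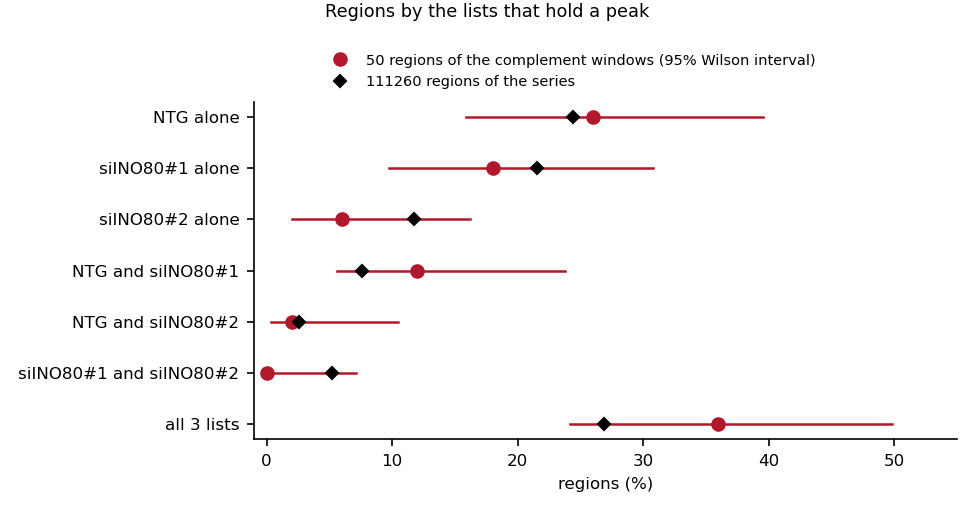
Share of regions, in percent, by the lists that hold a peak, for the 50 regions of the complement windows (circles with 95% Wilson intervals) and for the 111260 regions of the experiment (diamonds). Every diamond lies within the interval of its row, from 2.62% for NTG with siINO80#2 to 26.8% for all 3 lists.

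Of the 38 NTG peaks in the windows, 24 overlapped a peak of siINO80#1 (63.2%, 47.3 to 76.6), against 56.5% of all NTG peaks, and 19 a peak of siINO80#2 (50.0%, 34.8 to 65.2), against 48.0%. Both shares depended on height. Of the 19 NTG peaks above percentile 50, 17 and 14 had a match, and of the 19 others 7 and 5. Over the whole experiment, 82.6% of the NTG peaks above percentile 50 had a match in siINO80#1 and 74% in siINO80#2, and of those up to percentile 50 30.5% and 22.0%.

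In the 18 regions found in all 3 lists, the percentile was lower in both INO80 siRNA lists than in NTG in 7, higher in both in 4 and in opposite directions in 7. Over the 29863 such regions of the experiment, 42.9% were lower in both, 29.0% higher in both and 28.1% in opposite directions. The CFB start, the C9 distal site and the C1S distal site were lower in both. So were the neighbouring starts of PHB2, LPCAT3, SKIC2 and DXO. The SKIC2 and DXO starts lie in the CFB window. In NTG, siINO80#1 and siINO80#2 their percentiles were 72.6, 39.1 and 33.1 for SKIC2, and 67.5, 54.0 and 6.51 for DXO. The C5 reference start, the C8A intron site, the CFI site at chr4:110724935-110725595 and the start of GAR1 were those higher in both.

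**Figure D4:**
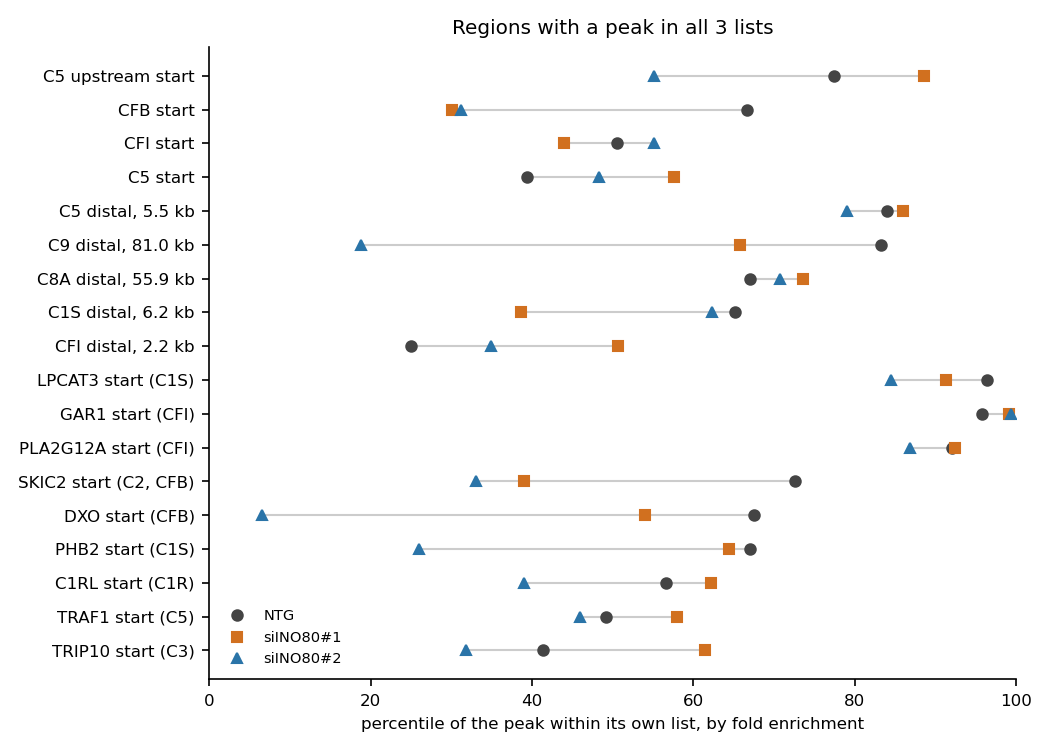
Percentile by fold enrichment within each list (horizontal axis) for the 18 regions of the complement windows that have a peak in all 3 lists, named by the nearest start, with the distance in kb for distal regions and the window in parentheses for starts of neighbouring genes. The CFB start falls from 66.6 in NTG to 30.1 and 31.2, while the C8A intron site stays between 67.0 and 73.6. The neighbouring SKIC2 and DXO starts in the CFB window also lie lower in both INO80 siRNA lists than in NTG. Ranked by −log10 q, which is not drawn, the CFB start lies at 79.7, 58.5 and 58.5.

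Start-site peaks were found in a smaller share of other complement genes than of the 9, which were chosen with earlier results known. Of 19 further cascade genes, among them the C1q chains, C4A, C6 and the lectin-pathway proteases, 5 had one in NTG, 4 in siINO80#1 and 3 in siINO80#2, and 13 had none in any list. C6, a terminal component, had 9.55-fold enrichment in NTG, 3.41 in siINO80#1 and 3.63 in siINO80#2. C8B, a second subunit of C8, had 6.65 and 3.37-fold in NTG and siINO80#1 and no peak in siINO80#2, as C8A did. The lectin-pathway proteases MASP1 and MASP2 had 3.85-fold and 2.27-fold in NTG and no peak in either other list. MBL2, a lectin that starts this pathway, had 2.63, 2.00 and 3.10-fold enrichment, highest in siINO80#2. COLEC11, a further lectin, had no peak in NTG, 1.89-fold in siINO80#1 and 2.15-fold in siINO80#2. C4A and C4B had no peak, but they are near-identical copies whose reads may not map uniquely, so their absence from the lists is uncertain.

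Of 16 complement regulators 8, 9 and 7 had a start-site peak, and 7 had one in every list, including CD46, CD55 and CD59, the membrane regulators found on most cells, and C4BPB. C4BPA had 4.77-fold enrichment in NTG, 3.41 in siINO80#1 and none in siINO80#2. SERPING1, the C1 inhibitor, had a peak in siINO80#1 only, of 2.23-fold. Of 9 receptors, most of them carried by leukocytes, 0, 1 and 0 had one.

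Coagulation genes, another group of genes for liver-made plasma proteins, differed from the complement genes in height. Of 17, 12 had a start-site peak in NTG, 11 in siINO80#1 and 11 in siINO80#2, and 10 had one in all 3 lists. Their median percentile was 92.0, 86.1 and 76.6, above the complement medians in each list. Of the 12 with a peak in NTG, 1 had none in siINO80#1 and 1 none in siINO80#2. Of 15 acute-phase genes 5, 6 and 5 had a peak, and none of the 5 in NTG was missing from another list. Low-CpG genes were 15 of the 17 and 13 of the 15. Of all low-CpG genes, 20.5%, 19.8% and 16.4% had a start-site peak, and of all protein-coding genes 58.8%, 58.6% and 52.0%. Of those with one in NTG, 21.3% and 30.9% of low-CpG genes had none in siINO80#1 and siINO80#2. Over all protein-coding genes this was 6.41% and 14.5%. The family values are counts of genes from 1 list per siRNA, and the difference between the families was not tested.

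**Figure D5:**
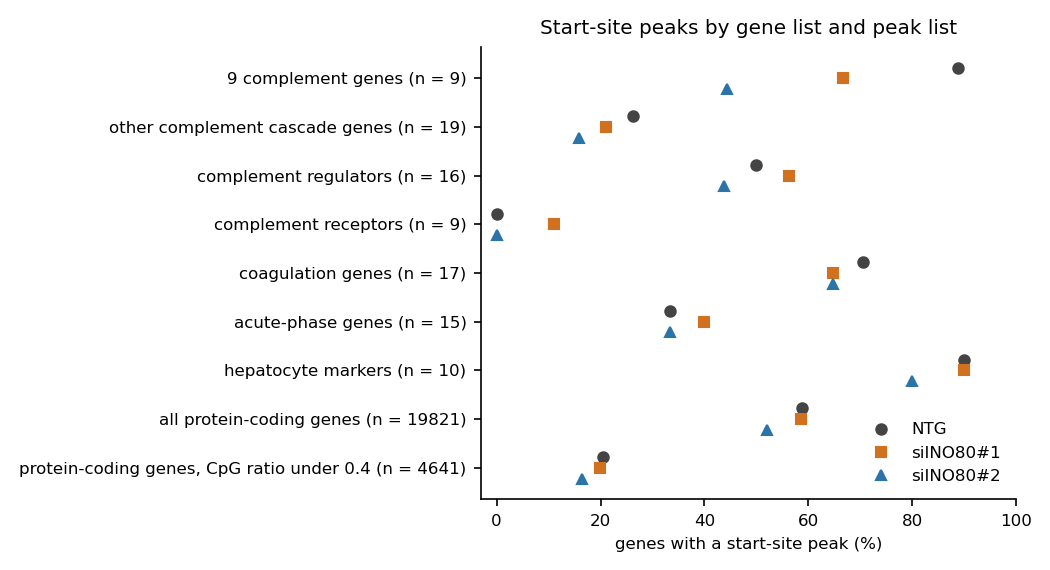
Share of genes with a start-site peak, in percent, by gene list and peak list; n is the number of genes. The 9 complement genes run from 88.9% in NTG to 66.7% in siINO80#1 and 44.4% in siINO80#2, while the coagulation genes lie at 70.6%, 64.7% and 64.7%.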

How the data were processed

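ATAC-seq was performed in HepG2 cells in 3 replicates for each of 3 siRNAs, and samples were grouped by their titles. Per the submitters' processing notes, Trim Galore 0.4.1, Bowtie2, SAMtools, MACS2 and deepTools 2.2.4 were used with hg19; their settings are not given in the sources used here, nor is the handling of the transposase offset. The authors deposited 1 filtered MACS2 list per siRNA, in which the value of a peak is a fold enrichment, a ratio to local background without an input library. Each p-value and q-value was deposited on the −log10 scale. Sequencing depth is not in the lists.

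An interval with several summits counted once, by its summit of highest fold enrichment. The reads and background at a summit were solved from fold enrichment and −log10 p by the formulas of MACS2; the solution missed −log10 p by at most 0.00121, whereas the next whole number missed it by at least 0.0275, and in a test on 2000 simulated peaks 2000 were recovered. Poisson intervals on reads, like Wilson intervals on shares, cover counting error at a confidence of 95% only. Lists were merged into regions from an overlap of 1 bp. A peak within 1 kb of the start of a coding transcript of 1 of the 9 genes was a start-site peak, else within 1 kb of that of another gene a neighbouring start, else distal. C1R has no canonical transcript in the annotation, so its longest coding transcript gave its reference start. Motifs were matched by their letters, and sequences were read from GRCh37. Analyses used scipy 1.17.1 and pandas 2.3.3 for tables, pysam 0.24.0 for sequences and matplotlib 3.10.9 for plots under Python 3.11.15, and regions were checked with bedtools 2.31.1.

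All 9 genes are named, with every start-site peak. Of distal regions, the text names the highest of each gene, any in both INO80 siRNA lists without NTG, and those of NTG alone above percentile 50; other genes were picked after their values were seen. The upstream start regions of C2, C3 and C5 and the promoters of C1R and C9 are not printed, and the sequence of 1 further promoter is not reported here. The members, gene lists and motifs were chosen with earlier results of these data known. Alternatives varied the q threshold, list size, merging, overlap, window, start distance, start annotation and rank measure. PECAM1 was listed as a marker but not found in the annotation.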

Additional observations from a re-analysis of the deposited data

Results flagged for a closer look

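Some values moved in opposite directions with the 2 INO80 siRNAs, relative to NTG. None of these differences was tested, since each siRNA had 1 list. Peaks at start sites of neighbouring genes numbered 3 more in siINO80#1 and −2, that is fewer, in siINO80#2. Regions at neighbouring starts in siINO80#1 alone numbered 3, near C1RL, TRIP10 and TRAF1, at percentiles of 3.95, 0.202 and 3.11. Each of these 3 genes also had a start region with a peak in every list. In percentile points within the list, given as siINO80#1 minus NTG and then siINO80#2 minus NTG, the upstream start of C5 moved by 11.2 and −22.3, the start of CFI by −6.58 and 4.58, and the distal C5 site by 1.95 and −4.92. Among neighbouring starts, TRIP10 in the C3 window moved by 20.1 and −9.51, C1RL in the C1R window by 5.58 and −17.6, TRAF1 in the C5 window by 8.77 and −3.22, and PLA2G12A in the CFI window by 0.328 and −5.24. Of the 18 regions with a peak in every list these were 7, against 28.1% of the 29863 such regions of the experiment.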

How the results depend on the processing

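Of 189 recomputed counts and shares, from 21 results under 9 settings, 165 stayed within 1.5 times the main count or within its interval and 24 did not. With a −log10 q of at least 5, the windows held 17, 19 and 10 peaks in NTG, siINO80#1 and siINO80#2, of which 3, 4 and 2 were start-site and 5, 5 and 3 distal. Members with a start-site peak were then 3 in NTG and 2 in siINO80#2, regions of NTG, siINO80#1 and siINO80#2 alone 1, 4 and 0, regions of all lists 9, and 88.2% of NTG peaks had a match in siINO80#1. With 50 kb on either side, peaks numbered 51 and 38 in the INO80 siRNA lists and distal peaks 26, 22 and 17, with 1 region in both INO80 siRNA lists without NTG and 31 in all 3. At equal list size 3 regions remained in siINO80#1 alone. Members with a start-site peak were more in NTG than in siINO80#2 in 9 of 9 settings, and more than in both INO80 siRNA lists in 7. The window and overlap settings could not change this count, so they do not test the order of the lists. NTG did not exceed siINO80#1 with 2.5 kb (8 and 8 genes) or a −log10 q of at least 5 (3 and 4). With 1 reference start per gene, an alternative chosen after seeing the data, members with a start-site peak numbered 8, 5 and 3. Ranked by −log10 q, 9 of 23 start-site percentiles were higher, with the largest move 28.4 points, at the CFB start in siINO80#1. Leaving out replicates was not possible, because 1 list stood for all 3 replicates. No paired analysis was possible because the lists carry no replicate numbers. At the lowest background of each list, no site with fewer than 12 reads in NTG, 14 in siINO80#1 or 15 in siINO80#2 was listed.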
